A study of Drosophila melanogaster with 9 samples.

Results

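The comparison covers both ends of the temporal series of intermediate neural progenitors (INPs) in the Drosophila larval brain: old INPs positive for Eyeless (Ey+) against young INPs positive for Dichaete (D+). Its members were taken from the sample labels, 3 Ey+ and 3 D+ libraries, 6 of the 9 libraries in the series. The other 3 are INPs of the middle state, positive for Grainyhead (Grh+), and enter here through the shared model fit and as the step between the ends. All cells carried erm-GAL4 driving UAS-cd8::tdTomato and came from wandering larvae of the third instar reared at 29 °C. Ey+ and Grh+ INPs were marked by GFP fusions on BAC insertions, which add copies of ey or grh to the genome, and D+ INPs by a GFP knock-in at D itself. The largest cells with the highest tdTomato and GFP signal were sorted, 6000 to 7000 per library, and their RNA was primed with oligo-dT. All animals are described as wild type apart from these markers. How many brains or sorts lie behind one library is not given in the sources used here, so p-values measure the spread between these libraries only.

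A type II neuroblast divides to give INPs, and each INP divides several times, passing its daughters on to become neurons or glia. While it does so, a mature INP expresses a sequence of transcription factors: first the SoxB protein Dichaete, then Grainyhead, then Eyeless, the fly Pax6 protein. Different progeny are made in each window, so the 2 ends of the series are the same progenitor type at its youngest and oldest.

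The 6 libraries held 17447619 to 21765319 reads on genes in Ey+ INPs and 19544572 to 23184025 in D+ INPs. Every D+ library was sequenced on 1 flow cell and every Ey+ and Grh+ library on another, so sequencing run and the D+ state cannot be told apart. Ey+ against Grh+ INPs is a comparison within a run. Of the libraries, 2 stood apart from their groups. Ey+ replicate 1 had a summed level of 5667 RPM (reads on a gene per 1000000 reads on genes) over 19 neuron markers, against 956 and 1716 in the other Ey+ libraries and 512 to 1653 in the D+ libraries. D+ replicate 2 had the highest summed level of cytosolic ribosomal protein mRNAs, 137220 RPM against 77134 and 102845 in the other D+ libraries. It also had the lowest level of lncRNA:roX1, a noncoding RNA of male dosage compensation, at 3251 RPM against 10350 and 10639 RPM in the other D+ libraries and 9742 to 12657 RPM in the Ey+ libraries. The second such RNA, lncRNA:roX2, went the other way, at 96.3 RPM in D+ replicate 2 against 40.1 and 45.5 RPM in the other D+ libraries. Results that rest on these libraries are given with and without them. Progenitor markers were present throughout: ase was at 712, 811 and 755 RPM in Ey+ INPs and 843, 528 and 828 RPM in D+ INPs, and mira was at 999 to 1525 RPM in Ey+ INPs and 1157 to 1752 RPM in D+ INPs. Markers of haemocytes (6 genes) summed to 2.30 to 9.80 RPM in Ey+ and 2.67 to 6.396 RPM in D+ libraries, and those of muscle (6 genes) to 3.997 to 6.543 RPM in Ey+ and 2.61 to 5.84 RPM in D+ libraries. The glial identity gene repo had 2.71 to 4.53 RPM in Ey+ and 1.33 to 5.996 RPM in D+ libraries.

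The defining genes followed the labels. The gene ey (FBgn0005558, chromosome 4, 697689 to 721173 of BDGP6.54) had 562, 685 and 653 RPM in Ey+ INPs, against 7.98, 10.6 and 19.9 RPM in D+ INPs. Ey+ INPs exceeded D+ INPs by 5.75 on the log2 scale, with a standard error (SE) of 0.38 and an adjusted p of 9.46e-05 by edgeR's quasi-likelihood test, as used for all p-values here. In Grh+ INPs, which do not carry the Ey-GFP insertion, ey was at 481 to 633 RPM. D (FBgn0000411, chromosome 3L, 14175610 to 14178620) had 14.5, 14.0 and 17.5 RPM in Ey+ INPs and 393, 242 and 382 RPM in D+ INPs. Its log2 fold change was -4.33 (SE 0.28, adjusted p = 9.46e-05), and for both genes the libraries lay far apart. Reads do not separate endogenous ey from the copies on the insertion.

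Between old and young INPs, 403 of 10193 genes tested differed, 168 higher and 235 lower in Ey+ INPs. To be counted, a gene needed an adjusted p below 0.05, a change of more than 1 on the log2 scale and a mean above 10 RPM in 1 or more of the 3 states. The background is thus 3.95% of genes in either direction, 1.65% higher and 2.31% lower. Libraries of the 2 states did not overlap in RPM for 166 of the 168 higher and all 235 lower genes, against 24.5% of all genes tested. The genes gained included transcription factors of temporal patterning and of retinal and glial fate, the cell cycle inhibitor dap and the histone variant gene His3.3B. The genes lost included D and erm, the type II lineage gene btd, receptors and adhesion molecules, and mRNAs of ribosomal and mitochondrial proteins. Of the 403, 103 kept their call whichever single library of the 9 was left out, 67 higher and 36 lower. Without both Ey+ replicate 1 and D+ replicate 2, 231 genes were called, 176 of them shared with the 403. That fit kept 102 of the 103. Since the 103 were chosen for holding without either of these libraries alone, this count is not a separate check.

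Of the factors gained, svp, a nuclear receptor that switches temporal programmes in neuroblasts, had 85.8, 82.8 and 56.7 RPM in Ey+ INPs and 1.85, 0.716 and 1.63 RPM in D+ INPs. No D+ library came near the Ey+ range, and the log2 fold change was 5.90 (SE 0.41, adjusted p = 0.000111). The forkhead gene slp2 (sloppy paired 2), a temporal factor of optic lobe neuroblasts, had 62.9, 67.6 and 72.8 RPM in Ey+ INPs and 12.03, 6.65 and 10.1 RPM in D+ INPs (log2 fold change 2.95, SE 0.23, adjusted p = 0.000237). The zinc finger gene dati had 273, 299 and 268 RPM in Ey+ INPs and 136, 119 and 150 RPM in D+ INPs. These 3 were the members past the threshold among 18 larval neuroblast temporal genes tested (16.7%, against 1.65% higher over all genes tested). Imp and scro, also entered for that list, had no match in the annotation and were not counted. The median of that list was 1.22 against -0.02 over all genes tested, but -0.10 without Ey+ replicate 1 and D+ replicate 2. Among its members was chinmo, a temporal BTB factor, at 1213, 143 and 75.8 RPM in Ey+ INPs and 124, 70.3 and 90.9 RPM in D+ INPs (adjusted p = 0.127). Ey+ replicate 1 was far above the others, Ey+ replicate 2 was just above the highest D+ library, and Ey+ replicate 3 lay among the D+ libraries.

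Among 12 retinal determination genes tested, which act in the eye disc, 3 rose (25%, against 1.65% of all genes tested) and none fell. Of the 3, 1 was ey itself, by which Ey+ INPs were sorted, so its rise was set by the design. Beside ey these were the pair of related genes dan (distal antenna) and danr (distal antenna-related). danr had 69.9, 110 and 128 RPM in Ey+ INPs and 31.0, 26.0 and 32.8 RPM in D+ INPs. dan had 73.9, 118 and 130 RPM in Ey+ INPs and 35.9, 47.2 and 31.7 RPM in D+ INPs. Their log2 fold changes were 1.87 for danr and 1.59 for dan (SEs 0.17 and 0.20, adjusted p = 0.000551 and 0.00349). By mean RPM both were already as high in Grh+ INPs, with 140 for danr and 112 for dan, against 103 and 107 in Ey+ INPs. Neither differed between Ey+ and Grh+ INPs (adjusted p = 0.944 and 0.993). The core members Optix, so, eya and dac did not pass: Optix, the most abundant of them, had means of 374 RPM in Ey+ and 497 RPM in D+ INPs (log2 fold change -0.30, adjusted p = 0.283).

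Among gained genes averaging at least 20 RPM in Ey+ INPs, the largest fold change was that of CG43163, with 96.0, 137 and 146 RPM in Ey+ INPs and 2.59, 0.563 and 0.693 RPM in D+ INPs. The log2 value was 6.70 (SE 0.59, adjusted p = 0.000458), and the annotation used here gives no name beyond this identifier. The LIM homeobox gene Lmx1a had 14.8, 16.0 and 12.9 RPM in Ey+ INPs and 0 counts in each D+ library. Against a floor of 3 counts per D+ library (0.144 RPM), Lmx1a was at least 101-fold higher (adjusted p = 0.000551). A gene with no symbol in the gene name table, FBgn0028993, had 2291, 1834 and 1316 RPM in Ey+ INPs and 25.6, 10.6 and 45.2 RPM in D+ INPs. Its level set it among the most abundant gained mRNAs, with a log2 fold change of 6.25 (SE 0.59, adjusted p = 0.000642). A further gene without a symbol, FBgn0001981, rose by 4.15 (SE 0.46, adjusted p = 0.00136). Genes without a symbol are not necessarily unnamed, and they may correspond to entries of the gene lists that were left out for lack of a match.

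gcm (glial cells missing), the transcription factor that starts glial fate, had 125, 125 and 104 RPM in Ey+ INPs and 1.47, 0.0512 and 3.91 RPM in D+ INPs. The groups were well separated, with a log2 fold change of 6.17 (SE 0.83, adjusted p = 0.00406), and 128 bp of its exons are shared with CG31709 on the same strand. Of 15 glia markers tested, 2 passed (13.3%, against 1.65% of all genes tested), gcm and zyd (zydeco), a calcium exchanger gene of cortex glia. zyd had 7.26, 12.9 and 7.22 RPM in Ey+ INPs and 4.10, 2.35 and 2.62 RPM in D+ INPs. Its means there, 9.12 and 3.02 RPM, were under the threshold of 10 RPM. zyd passed that threshold only through Grh+ INPs, where its mean was highest, at 21.1 RPM. Its call was lost without Ey+ replicate 1 or 2 (adjusted p up to 0.104). The glial genes Eaat1 and nrv2 did not pass, with Eaat1 at 520 to 684 RPM in Ey+ and 486 to 931 RPM in D+ INPs. In bulk libraries, fewer cells with a transcript and less of it per cell cannot be told apart.

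Further regulators were gained at high levels. mld (molting defective), a zinc finger gene known for ecdysone synthesis, had 1134, 1135 and 816 RPM in Ey+ INPs and 59.6, 19.9 and 52.3 RPM in D+ INPs. The log2 fold change of mld was 4.71 (SE 0.45, adjusted p = 0.000642); 98 bp of its exons overlap Syx18 on the opposite strand, which unstranded counting does not separate. Of 68 zinc finger and other neural transcription factors tested, 6 rose (8.82%) and 2 fell (2.94%), against 1.65% and 2.31% of all genes tested. D, by which D+ INPs were sorted, was 1 of the 2. TfAP-2, a conserved AP-2 factor, had 284, 351 and 352 RPM in Ey+ INPs and 96.5, 130 and 139 RPM in D+ INPs (log2 fold change 1.56, SE 0.19, adjusted p = 0.00266). The forkhead gene fd102C was at 767, 756 and 593 RPM in Ey+ INPs, against 208, 75.8 and 195 RPM in D+ INPs (log2 fold change 2.31, SE 0.38, adjusted p = 0.00949). Both held in every fit with 1 library left out.

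The histone variant gene His3.3B, which encodes replication-independent H3.3, showed the largest gain in abundance of all genes called. It had 15535, 19053 and 19283 RPM in Ey+ INPs and 3319, 1760 and 3591 RPM in D+ INPs. His3.3B thus differed by 2.76 on the log2 scale (SE 0.27, adjusted p = 0.000663). Further down the ranking by abundance stood fax, FBgn0028993 and 2 chromatin genes. fax (failed axon connections) had 4116, 2464 and 1647 RPM in Ey+ INPs and 1083, 339 and 725 RPM in D+ INPs (log2 fold change 2.16, SE 0.53, adjusted p = 0.0391). The trithorax methyltransferase gene trx had 2601, 1598 and 878 RPM in Ey+ INPs and 478, 87.6 and 200.1 RPM in D+ INPs (log2 fold change 2.96, SE 0.65, adjusted p = 0.0273). osa, which encodes a SWI/SNF subunit, had 1671, 1634 and 1450 RPM in Ey+ INPs and 932, 347 and 697 RPM in D+ INPs (log2 fold change 1.42, SE 0.33, adjusted p = 0.0341). The call of fax was lost in every fit with 1 library left out other than those without D+ replicate 1 or Ey+ replicate 3 (adjusted p up to 0.12). The call of trx was lost without D+ replicate 3, Grh+ replicate 3, or Ey+ replicate 1 or 2 (adjusted p up to 0.087). That of osa was lost without D+ replicate 3, any Grh+ replicate, or Ey+ replicate 1 or 2 (adjusted p up to 0.108). Of 11 SWI/SNF subunits tested, osa alone passed (9.09%, against 1.65% higher over all genes tested). The list median was -0.22, but 0.18 without Ey+ replicate 1 and D+ replicate 2.

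**Figure D1:**
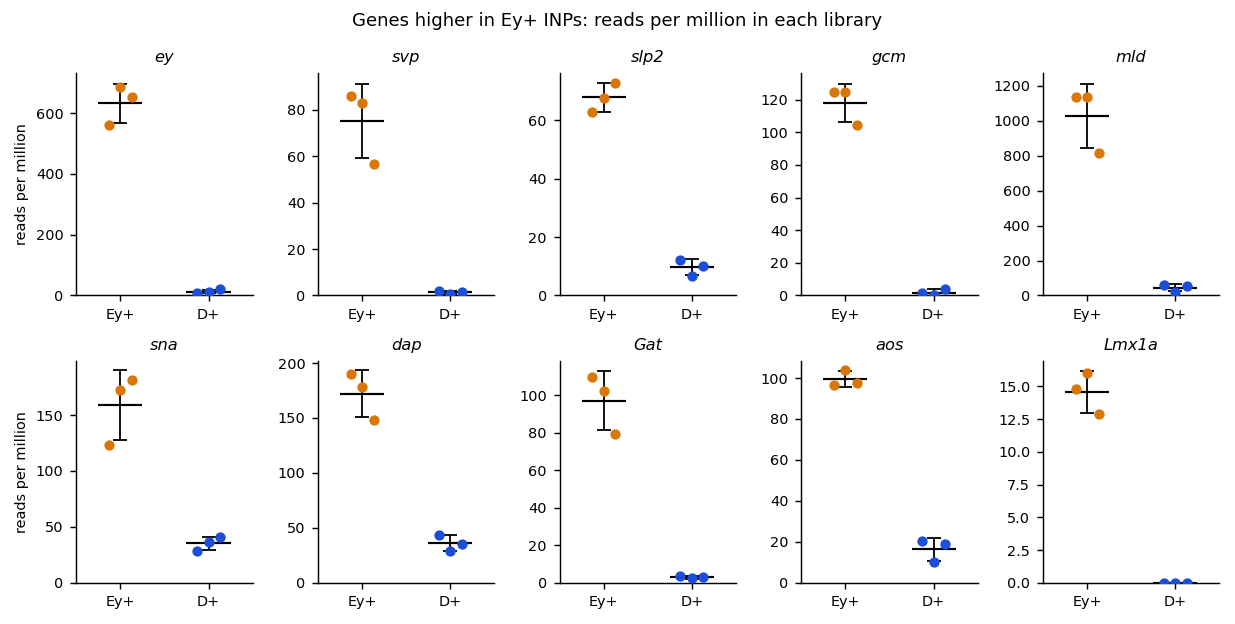
RPM of 10 genes higher in Ey+ INPs, 1 point per library (orange, Ey+, left; blue, D+, right), with the mean (horizontal line) and SD of 3 libraries (bars). Each panel has its own vertical axis starting at 0. In all 10 panels every Ey+ library lies above every D+ library, and Lmx1a is at 0 in all D+ libraries.

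Of 15 genes of the G1/S transition tested, 3 rose (20%, against 1.65% of all genes tested) and none fell. dap (dacapo), the p27-type inhibitor of Cyclin E/Cdk2, had 190, 178 and 148 RPM in Ey+ INPs and 43.2, 29.1 and 35.6 RPM in D+ INPs. Its log2 difference was 2.43 (SE 0.24, adjusted p = 0.000835). Cyclin E itself (CycE) had 1861, 1449 and 1021 RPM in Ey+ INPs and 646, 235 and 458 RPM in D+ INPs. Its log2 fold change of 1.89 (SE 0.43, adjusted p = 0.0322) passed in the full fit but not without D+ replicate 2 or 3, Grh+ replicate 1 or 3, or Ey+ replicate 1 or 2 (adjusted p up to 0.0917). CycD, encoding Cyclin D, had a log2 fold change of 1.02 (SE 0.21, adjusted p = 0.0215), lost without D+ replicate 2, Grh+ replicate 1, or Ey+ replicate 1 or 2 (adjusted p up to 0.0915). Of 31 replication genes tested, the GINS subunit gene Psf3 was the only one past the threshold (3.23%, against 1.65% higher over all genes tested). It had 95.1, 110 and 120 RPM in Ey+ INPs and 43.6, 48.0 and 49.0 RPM in D+ INPs (log2 fold change 1.34, SE 0.15, adjusted p = 0.00135), and 831 bp of its exons are shared with CG17841 on the opposite strand. The rest of the replication list leaned the other way, with 27 of 31 below 0 and a median of -0.35, which was -0.02 without Ey+ replicate 1 and D+ replicate 2. Of 39 mitosis genes, none rose and 2 fell (5.13%, against 2.31% of all genes tested): cid, the centromeric histone gene, and Det. Both calls were lost without Ey+ replicate 1, Ey+ replicate 2 or D+ replicate 2, and that of cid was kept only without D+ replicate 1 (adjusted p up to 0.189 for cid and 0.0909 for Det).

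Single genes of cell communication were also among those gained. aos (argos), a secreted inhibitor of the EGF receptor, had 96.7, 104 and 97.4 RPM in Ey+ INPs and 20.2, 10.03 and 19.1 RPM in D+ INPs (log2 fold change 2.74, SE 0.27, adjusted p = 0.000663). The ligand gene Wnt4 had 101, 56.5 and 36.2 RPM in Ey+ INPs, all above the 8.63, 3.99 and 10.4 RPM of D+ INPs (log2 fold change 3.30, SE 0.54, adjusted p = 0.00942). These were the 2 members past the threshold among 54 signalling ligands and receptors. Of that list 3.7% were thus higher and none lower, against 1.65% and 2.31% of all genes tested. Gat, the GABA transporter gene, had 110, 102 and 79.2 RPM in Ey+ INPs and 3.54, 2.30 and 2.82 RPM in D+ INPs (log2 fold change 5.24, SE 0.34, adjusted p = 9.46e-05). Ace, which encodes acetylcholinesterase, had 29.0, 23.9 and 25.6 RPM in Ey+ INPs and 8.20, 2.66 and 4.70 RPM in D+ INPs (log2 fold change 2.49, SE 0.40, adjusted p = 0.00855). robo1, the receptor for the guidance cue Slit, had 189, 174 and 155 RPM in Ey+ INPs and 69.5, 42.7 and 76.7 RPM in D+ INPs (log2 fold change 1.62, SE 0.27, adjusted p = 0.00949). RapGAP1, a GTPase-activating protein gene, was at 1004, 473 and 279 RPM in Ey+ INPs and 24.7, 10.6 and 35.2 RPM in D+ INPs (log2 fold change 4.89, SE 0.68, adjusted p = 0.00434). Ey+ replicate 1 was the highest library for Wnt4 and RapGAP1, and both calls were kept without it.

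The neuron markers behaved differently from these single genes. None of 19 tested passed the threshold, and 4 had an unadjusted p under 0.05, against 26.5% of all genes tested. Of the 19, 17 leaned upward, and the median log2 fold change of the list was 1.13. That median was 0.19 without Ey+ replicate 1 and 0.09 without both that library and D+ replicate 2. The pan-neuronal RNA-binding gene elav had 2704, 1144 and 649 RPM in Ey+ INPs and 977, 185 and 605 RPM in D+ INPs, so Ey+ replicate 3 lay below D+ replicate 1. The synaptic vesicle gene nSyb, which marks mature neurons, had 7.05 to 11.1 RPM in Ey+ and 1.38 to 7.72 RPM in D+ INPs. Among 48 axon guidance and wiring genes, 2 rose (4.17%) and 1 fell (2.08%), against 1.65% and 2.31% of all genes tested. Their median was 0.71, and 0.01 without the 2 libraries. The part of neuronal RNA in the gained genes was not tested.

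The losses began with the young INP programme itself. erm (earmuff), a zinc finger gene that restricts INPs from returning to a neuroblast state, had 43.1, 42.7 and 38.7 RPM in Ey+ INPs and 192, 245 and 197 RPM in D+ INPs. No libraries overlapped, and the log2 fold change of erm was -2.19 (SE 0.21, adjusted p = 0.000663). The switch genes opa (odd-paired) and ham (hamlet) did not pass. opa had 416, 517 and 475 RPM in Ey+ INPs and 663, 398 and 707 RPM in D+ INPs (log2 fold change -0.20, SE 0.23, adjusted p = 0.62). ham had 712, 813 and 661 RPM in Ey+ INPs and 674, 304 and 669 RPM in D+ INPs (log2 fold change 0.55, SE 0.30, adjusted p = 0.269). Nor did grh, with 382, 312 and 224 RPM in Ey+ INPs and 238, 88.1 and 172 RPM in D+ INPs (log2 fold change 1.07, SE 0.40, adjusted p = 0.122).

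Of 16 progenitor and INP markers tested, 2 rose (12.5%) and 3 fell (18.8%), against 1.65% and 2.31% of all genes tested. The zinc finger genes btd (buttonhead) and Sp1, a neighbouring pair on the X chromosome needed for the type II neuroblast fate, fell together. btd had 2.57, 1.43 and 1.60 RPM in Ey+ INPs and 18.7, 7.62 and 23.9 RPM in D+ INPs (log2 fold change -2.96, SE 0.50, adjusted p = 0.0104). Sp1 had 14.7, 6.64 and 5.44 RPM in Ey+ INPs and 60.5, 32.7 and 55.2 RPM in D+ INPs (log2 fold change -2.23, SE 0.48, adjusted p = 0.0251). Without Ey+ replicate 2 the call of btd was lost (adjusted p = 0.0601), and that of Sp1 was lost without it or without D+ replicate 3 (adjusted p up to 0.106). insc (inscuteable), which links cell polarity to spindle orientation, had 192, 260.2 and 330 RPM in Ey+ INPs and 544, 537 and 645 RPM in D+ INPs (log2 fold change -1.04, SE 0.18, adjusted p = 0.0105). Its call was lost without D+ replicate 3 or Ey+ replicate 1 or 2 (adjusted p up to 0.115). Against these, the Snail-family gene sna rose, with 123, 173 and 182 RPM in Ey+ INPs and 28.6, 36.4 and 40.7 RPM in D+ INPs (log2 fold change 2.29, SE 0.18, adjusted p = 0.000237). CycE, described above, was the other gain. The neuroblast genes dpn, wor, klu, pros and brat did not pass all thresholds, with dpn at a log2 fold change of 0.79 (SE 0.20, adjusted p = 0.0417).

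Homeobox and Sox genes were among those lost. Sox21a, like D a SoxB gene, had 0.827, 1.23 and 1.83 RPM in Ey+ INPs and 9.19, 13.6 and 12.1 RPM in D+ INPs (log2 fold change -3.07, SE 0.43, adjusted p = 0.00491). Of 63 homeobox genes tested, 2 rose (3.17%) and 4 fell (6.35%), against 1.65% and 2.31% of all genes tested. The 2 gains were Lmx1a and ey, by which Ey+ INPs were sorted. Vsx1 had 14.7, 19.0 and 15.4 RPM in Ey+ INPs and 66.0, 31.5 and 61.0 RPM in D+ INPs (log2 fold change -1.56, adjusted p = 0.0136). Its call was lost without Ey+ replicate 2 (adjusted p = 0.0672). bsh (brain-specific homeobox), a marker of neurons born from young INPs, was at 1.01, 0.738 and 0.974 RPM in Ey+ INPs and 5.82, 17.8 and 10.3 RPM in D+ INPs (log2 fold change -3.47, SE 0.52, adjusted p = 0.00657). Without D+ replicate 2, the highest library, the adjusted p of bsh stayed under 0.05 but the mean in D+ INPs fell under 10 RPM. Dll (Distal-less) had 6.62, 3.59 and 2.41 RPM in Ey+ INPs and 37.96, 13.5 and 40.4 RPM in D+ INPs (log2 fold change -2.63, SE 0.56, adjusted p = 0.0251), a call lost without D+ replicate 3, Ey+ replicate 2 or Ey+ replicate 3 (adjusted p up to 0.108).

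At the cell surface, hig (hikaru genki), which encodes a secreted protein of the synaptic cleft, showed the largest loss by fold among genes averaging at least 20 RPM in D+ INPs. It had 13.4, 10.7 and 12.8 RPM in Ey+ INPs and 314, 309 and 222 RPM in D+ INPs, with a log2 fold change of -4.36 (SE 0.29, adjusted p = 9.9e-05). wdp (windpipe), a transmembrane protein gene with leucine-rich repeats, had 5.05, 6.84 and 8.43 RPM in Ey+ INPs and 136, 108 and 77.1 RPM in D+ INPs (log2 fold change -3.87, SE 0.23, adjusted p = 9.46e-05). The integrin subunit gene if (inflated) had 3.997, 2.51 and 2.75 RPM in Ey+ INPs and 33.7, 22.5 and 36.6 RPM in D+ INPs (log2 fold change -3.14, SE 0.42, adjusted p = 0.00406). unc-5, a receptor for the guidance cue Netrin, had 116, 114.9 and 103 RPM in Ey+ INPs and 755, 470 and 748 RPM in D+ INPs (log2 fold change -2.40, SE 0.26, adjusted p = 0.00118). All 4 were called in every fit with 1 library left out.

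Beyond the surface, Gyg, which encodes glycogenin, the primer of glycogen synthesis, had 10.2, 13.3 and 10.3 RPM in Ey+ INPs and 62.2, 49.4 and 64.5 RPM in D+ INPs (log2 fold change -2.24, SE 0.21, adjusted p = 0.000551). Pura had 47.6, 49.2 and 42.01 RPM in Ey+ INPs and 287, 197 and 275 RPM in D+ INPs, and nebu had 44.2, 64.3 and 70.1 RPM in Ey+ INPs and 302, 269 and 337 RPM in D+ INPs. Their log2 fold changes were -2.30 for Pura and -2.24 for nebu (SEs 0.22 and 0.17, adjusted p = 0.000663 and 0.0002). Against 1.65% and 2.31% of all genes tested, 2 (0.463%) of 432 named long noncoding RNAs rose and 5 (1.16%) fell. The largest losses among them were those of lncRNA:CR33938, with 25.3, 49.5 and 88.7 RPM in Ey+ INPs and 204, 339 and 298 RPM in D+ INPs, and of lncRNA:noe, with 31.4, 28.4 and 34.6 RPM in Ey+ INPs and 188, 101 and 204 RPM in D+ INPs. The Notch target E(spl)m8-HLH was the only call among 21 Notch pathway genes (4.76% lower, against 2.31% of all genes tested). It had 6.16, 7.28 and 7.62 RPM in Ey+ INPs and 15.1, 32.4 and 20.2 RPM in D+ INPs (log2 fold change -1.55, adjusted p = 0.015). That call was lost without any 1 of the Ey+ replicates (adjusted p up to 0.0994).

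A few further genes that kept their call in every fit with 1 library left out were picked after their values were seen. egr (eiger), the fly TNF ligand, had 79.2, 91.7 and 93.9 RPM in Ey+ INPs and 16.7, 11.3 and 27.7 RPM in D+ INPs (log2 fold change 2.38, SE 0.30, adjusted p = 0.00316). Its mean was 156 RPM in Grh+ INPs, against 88.3 RPM in Ey+ INPs (adjusted p = 0.71 for Ey+ against Grh+ INPs). kay (kayak), the fly Fos subunit of AP-1, had 44.0, 36.9 and 35.4 RPM in Ey+ INPs and 12.6, 13.8 and 12.8 RPM in D+ INPs (log2 fold change 1.74, SE 0.23, adjusted p = 0.00378). On the side of the losses, phyl (phyllopod), an adaptor for protein degradation in sensory organ fate, had 26.6, 36.7 and 40.5 RPM in Ey+ INPs and 98.7, 78.7 and 98.7 RPM in D+ INPs (log2 fold change -1.30, SE 0.15, adjusted p = 0.00191). insb (insensible), a nuclear repressor of Notch activity, had 15.5, 18.0 and 21.0 RPM in Ey+ INPs and 41.5, 80.5 and 67.4 RPM in D+ INPs (log2 fold change -1.67, SE 0.23, adjusted p = 0.00434).

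**Figure D2:**
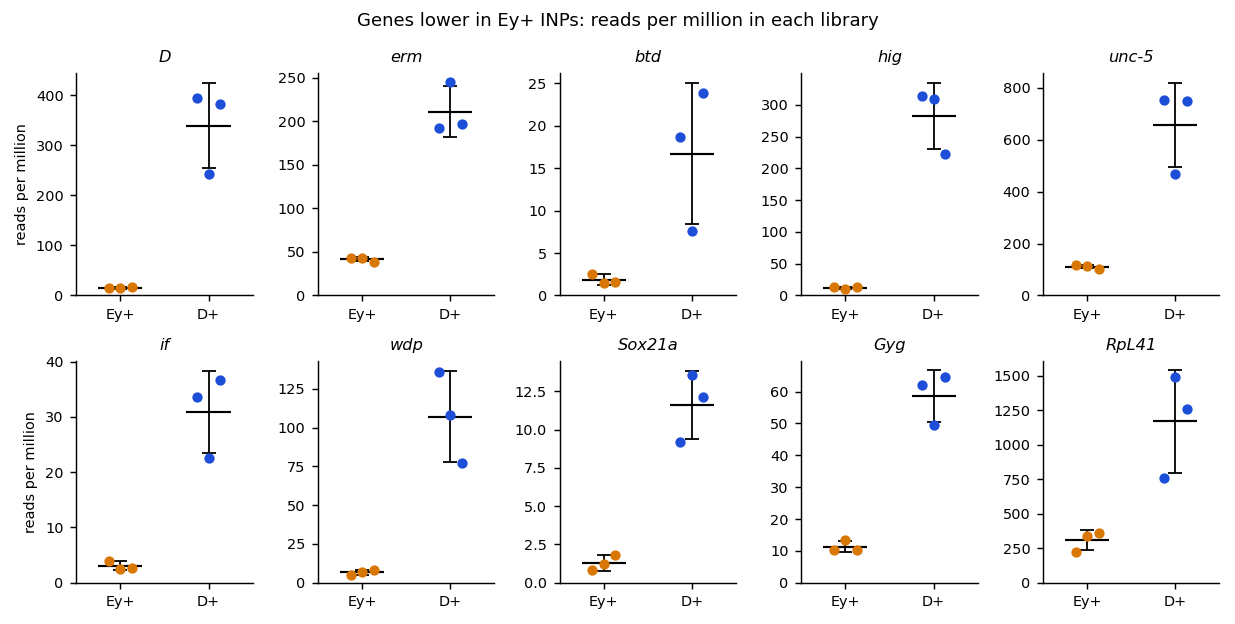
RPM of 10 genes lower in Ey+ INPs, 1 point per library (orange, Ey+, left; blue, D+, right), with the mean (horizontal line) and SD of 3 libraries (bars). Each panel has its own vertical axis starting at 0. Every Ey+ library lies below every D+ library in all 10 panels, and the D+ libraries are the more spread of the 2 groups.

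Among the lost genes were mRNAs of the translation and respiration machinery. Of 81 cytosolic ribosomal protein genes tested, none rose and 17 fell, 21% against a background of 2.31%, and 80 of 81 were below 0 with a median log2 fold change of -0.78. RpL41, which encodes a very short ribosomal peptide, had 223, 341 and 361 RPM in Ey+ INPs and 758, 1489 and 1259 RPM in D+ INPs (log2 fold change -1.82, SE 0.25, adjusted p = 0.00406). RpS21 had 73.0, 128 and 143 RPM in Ey+ INPs and 280.1, 492 and 351 RPM in D+ INPs (log2 fold change -1.62, SE 0.24, adjusted p = 0.00595). Only these 2 ribosomal protein genes were called in every fit with 1 library left out. The ranking of losses by abundance held mostly ribosomal protein genes, and of its 10 genes RpL41 alone kept its call in all those fits. RpL10Ab, the largest loss in RPM, had 717, 1126 and 1351 RPM in Ey+ INPs and 1789, 2770 and 2292 RPM in D+ INPs (log2 fold change -1.005, adjusted p = 0.0212), lost without D+ replicate 2 or 3, Grh+ replicate 1 or 3, or Ey+ replicate 1 or 2 (adjusted p up to 0.138). Of 70 mitochondrial ribosomal protein genes, 13 fell (18.6%), with a list median of -0.60, and of 74 oxidative phosphorylation genes 10 fell (13.5%), with a median of -0.62. sun (stunted), the epsilon subunit of the mitochondrial ATP synthase, had 15.3, 23.7 and 25.8 RPM in Ey+ INPs and 54.4, 95.3 and 89.5 RPM in D+ INPs (log2 fold change -1.78, SE 0.22, adjusted p = 0.00275). Proteasome genes had a median of -0.44 with 2 of 31 lower, and of -0.03 with none called without Ey+ replicate 1 and D+ replicate 2, whereas of 13 glycolysis and 12 TCA cycle genes none passed.

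These 3 groups moved with the 2 libraries that stood apart. Summed over 88 genes, cytosolic ribosomal protein mRNAs were at 39895, 67201 and 78146 RPM in Ey+ INPs and 77134, 137220 and 102845 RPM in D+ INPs, so Ey+ replicate 3 overlapped with D+ replicate 1. Without Ey+ replicate 1 and D+ replicate 2, the median of the list was -0.38 with 6 genes called, that of the mitochondrial ribosomal list -0.22 with none called, and that of the oxidative phosphorylation list -0.23 with 5 called. Within the sequencing run, the medians of Ey+ over Grh+ INPs were -0.20 for cytosolic ribosomal proteins, -0.10 for mitochondrial ribosomal proteins and -0.04 for oxidative phosphorylation subunits. That comparison shares its Ey+ libraries with the one against D+ INPs. Genes of the 3 lists were short, with median exon lengths of 927, 783 and 862 bp in the same order, against 2082 bp for all genes tested. With the dependence on exon length removed in every library, the list medians of Ey+ over D+ INPs were -0.64, -0.47 and -0.47. In that fit 13, 10 and 9 genes were lower.

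**Figure D3:**
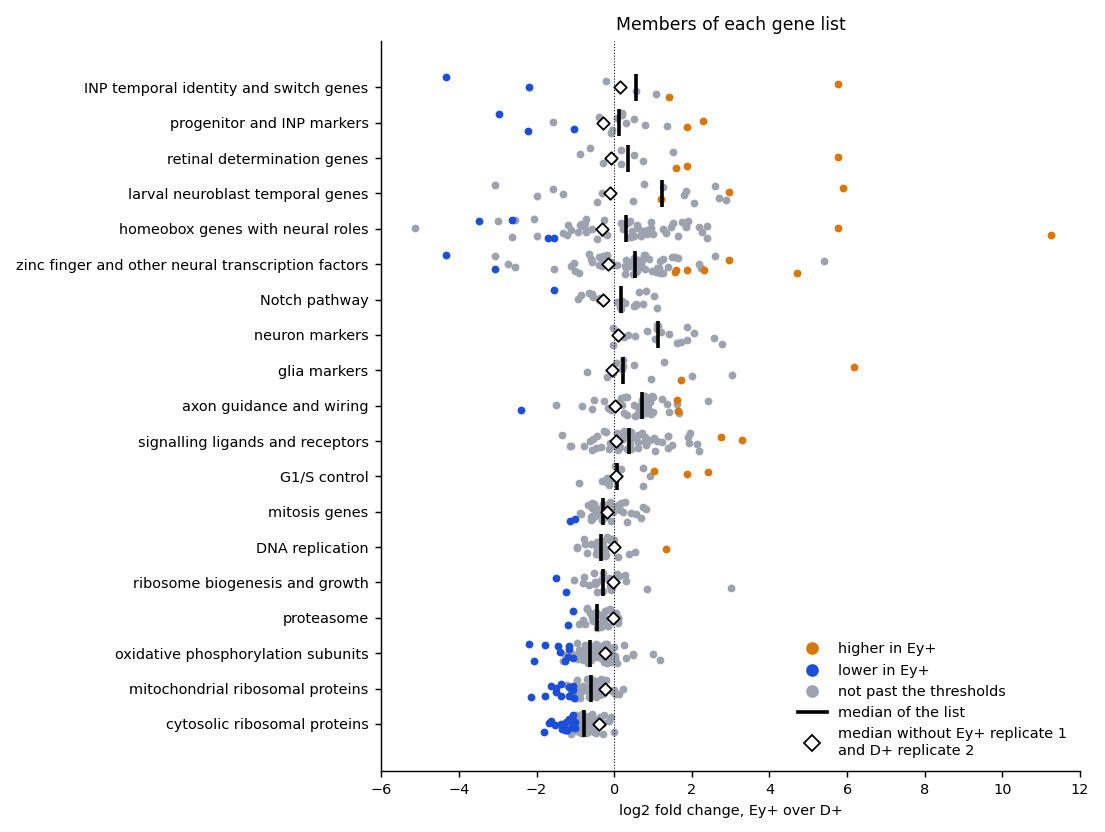
Log2 fold change of Ey+ over D+ INPs for each member (points) of 19 gene lists, coloured by call. Black bars mark each list's median over all libraries, and open diamonds the median without Ey+ replicate 1 and D+ replicate 2. The point farthest right is Lmx1a, at 0 counts in D+ INPs, whose fitted position depends on the prior count. Most diamonds lie nearer 0 than the bars, as for the neuron markers (1.13 and 0.09) and cytosolic ribosomal proteins (-0.78 and -0.38).

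Where between the ends the difference arose was described from Grh+ INPs, with a position of 0 for the D+ mean and 1 for the Ey+ mean on the scale log2(RPM + 1). Of the 168 gained genes, 138 were nearer to Ey+ than to D+ INPs in the Grh+ state. Of these, 73 had a higher mean RPM in Grh+ than in Ey+ INPs. RPM lacks the scaling between libraries that the fit applies, and some of the 73 were higher in Ey+ INPs in the fit. Psf3 and CycD were so, with log2 fold changes of Ey+ over Grh+ INPs of 0.26 and 0.23. The lowest adjusted p of that comparison among the 73 was 0.0865, for TfAP-2. Of the 235 lost genes, 202 were nearer to Ey+ INPs. The median position was 0.947 for gained and 0.703 for lost genes. Ey+ and Grh+ INPs were sequenced together and D+ INPs apart, so the position of all genes and the run cannot be told apart.

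Gained genes differed in when they came on. ey (position 0.971), slp2 (0.979), Psf3 (1.02) and svp (1.22) had reached their Ey+ level or passed it in Grh+ INPs, where svp was at 177, 179 and 133 RPM. By RPM, TfAP-2 was higher still in the middle state, at 720, 813 and 775 RPM in Grh+ INPs (position 1.86). Neither excess over Ey+ INPs passed the threshold within the run. The log2 fold changes of Ey+ over Grh+ INPs were -0.94 for TfAP-2 and -0.79 for svp (adjusted p = 0.0865 and 0.534). A later group was nearer to its D+ than to its Ey+ level in Grh+ INPs. It held dap (0.267), mld (0.289) and CG42402 (0.299), and also Gat (0.421) and gcm (0.423), which were almost midway. Gat was already higher in Grh+ than in D+ INPs, by 2.13 on the log2 scale (adjusted p = 0.00786). Within the sequencing run, 24 genes differed between Ey+ and Grh+ INPs (0.235% of those tested), 7 higher (0.0687%) and 17 lower (0.167%) in Ey+ INPs. The log2 fold changes of Ey+ over Grh+ INPs were 1.97 for dap (SE 0.24, adjusted p = 0.0155), 3.54 for mld (SE 0.42, adjusted p = 0.0148), 4.37 for CG42402 (SE 0.67, adjusted p = 0.0349) and 3.10 for Gat (SE 0.30, adjusted p = 0.00533). sna rose within the run as well, by 1.29 (SE 0.17, adjusted p = 0.0232). For gcm, at 16.7, 12.1 and 9.29 RPM in Grh+ INPs, the value was 3.53 (SE 0.72, adjusted p = 0.0978).

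Of the lost genes, 29 lay between the ends nearer to D+ and 199 nearer to Ey+ INPs. D stood at 52.0, 65.1 and 80.5 RPM in Grh+ INPs (position 0.536), erm at 114, 96.7 and 116 RPM (0.411), unc-5 at 298, 358 and 346 RPM (0.382) and wdp at 40.3, 43.0 and 37.0 RPM (0.367). Of these, D and wdp passed the threshold within the run, with log2 fold changes of Ey+ over Grh+ INPs of -1.81 (SE 0.25, adjusted p = 0.0245) and -2.31 (SE 0.22, adjusted p = 0.00533), as did nebu at -1.13 (adjusted p = 0.0265). hig (0.711), Pura (0.690) and RpL41 (0.784) had covered most of the difference in Grh+ INPs. Vsx1 was at 7.90, 10.9 and 10.4 RPM in Grh+ INPs, below its Ey+ level (position 1.42).

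**Figure D4:**
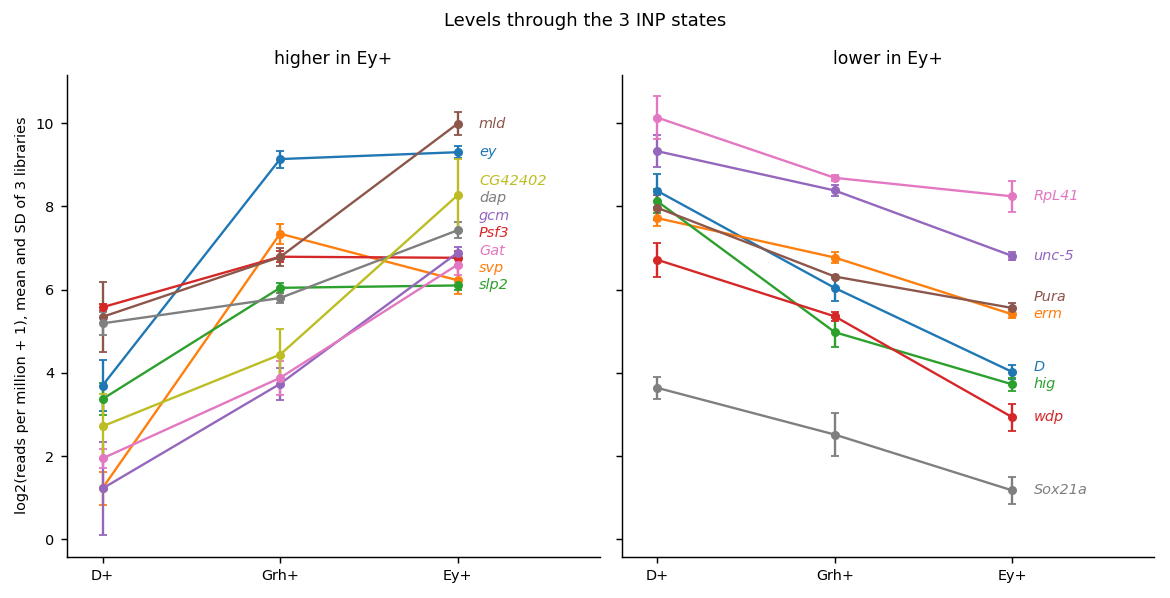
Mean and SD (n = 3 libraries) of log2(RPM + 1) in D+, Grh+ and Ey+ INPs for 9 genes higher (left) and 8 genes lower (right) in Ey+ than in D+ INPs. ey, svp, slp2 and Psf3 are near or above their Ey+ level in Grh+ INPs, whereas mld, dap, Gat, gcm and CG42402 lie nearer to their D+ level there. All 8 lost genes lie between their Ey+ and D+ levels in Grh+ INPs.

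The genes gained and lost differed in length. The summed exon length had a median of 3968 bp for gained genes, 1059 bp for lost genes and 2082 bp for all genes tested. When genes were divided by exon length into 5 groups of equal size, the median log2 fold change was -0.31, -0.17, -0.07, 0.04 and 0.41 from the shortest to the longest. The shortest group held 5 gained and 121 lost genes, and the longest 78 gained and 12 lost genes. Libraries of 1 state differed in the same manner: in the longest group, the median deviation from the mean of the 9 libraries was 0.49, 0.18 and -0.11 in Ey+ replicates 1, 2 and 3 and 0.13, -0.75 and -0.15 in D+ replicates 1, 2 and 3. After removing the dependence on exon length in every library, 380 genes were called, 183 higher and 197 lower, of which 315 were shared with the 403. The genes kept in every fit with 1 library left out had the same contrast, with median exon lengths of 3723 bp for gained and 1186 bp for lost genes. Of those 103, 96 were also called with the length trend removed, and 5 had no length in the annotation and could not enter that fit.

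**Figure D5:**
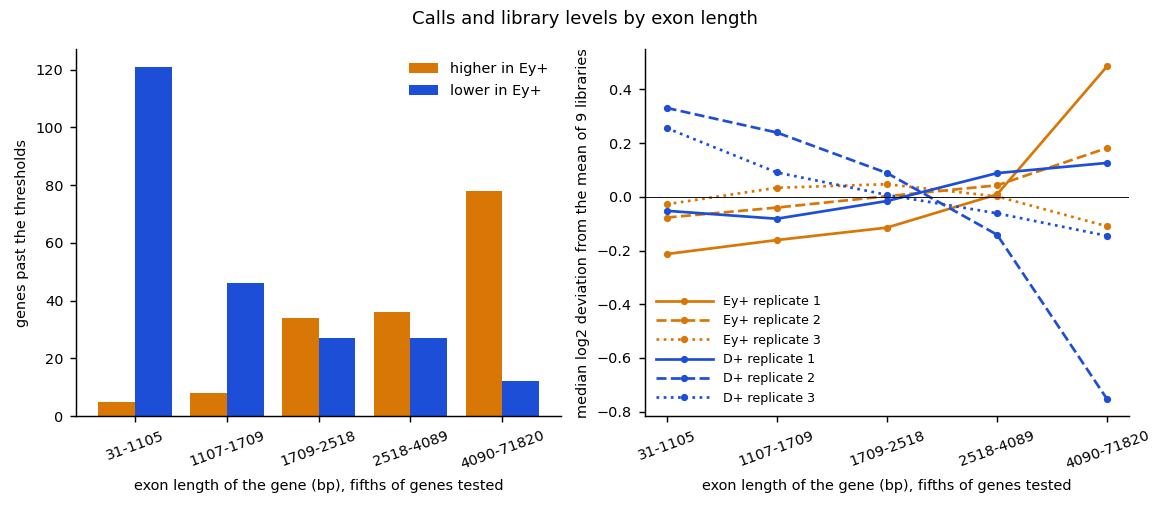
Left, number of genes higher (orange) and lower (blue) in Ey+ INPs in each of 5 groups by exon length. Right, median log2 deviation of each library from the mean of all 9 libraries in the same groups, for Ey+ (orange) and D+ (blue) replicates 1 to 3. The longest group holds 78 gains and the shortest 121 losses, and Ey+ replicate 1 (0.49) and D+ replicate 2 (-0.75) depart most in the longest group.

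Genes close to the tagged genes ey and D were also examined. The 5 other genes tested within 50 kb of ey had a median log2 fold change of 1.19 for Ey+ over D+ INPs and 1.76 for Ey+ over Grh+ INPs, against -0.02 and -0.03 over all genes. Without Ey+ replicate 1 and D+ replicate 2, the median over D+ INPs was 0.49. The 5 other genes tested within 50 kb of D had medians of -1.003 for Ey+ over D+ INPs and -1.20 for Ey+ over Grh+ INPs, with 1 of 5 above 0 against D+ INPs, and the median over D+ INPs was -1.51 without the 2 libraries. Across the 96 genes tested on chromosome 4, where ey and Gat lie, 79 were above 0 with a median of 0.73. The median without the 2 libraries was -0.22. Past the thresholds, 5 were higher (5.21%) and none lower, against 1.65% and 2.31% of all genes tested. Of the 5, 1 was ey, by which Ey+ INPs were sorted. Whether the Ey-GFP insertion or the D knock-in bears on these values was not tested.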

How the data were processed

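RNA from sorted INPs was measured by oligo-dT-primed RNA sequencing of 9 libraries, 3 each for D+, Grh+ and Ey+ INPs. The authors deposited raw read counts per gene for each library. As the study's methods and the labels state, ribosomal RNA reads were removed with BWA 0.7.12, unstranded reads aligned with TopHat2 2.1.1 to the FlyBase genome, noncoding classes masked with bedtools 2.26.0 and reads counted with HTSeq 0.6.1. Duplicate reads were marked by molecular tags, and whether they were left out of the counts is not given in the sources used here. Reads not on genes (34.7 to 53.2% in the summary lines) were left out. The 16364 identifiers were matched to the BDGP6.54 annotation of the same assembly, and 156 had no symbol or position. Since the annotation release differs, exon lengths and positions are approximate.

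Counts were tested with edgeR 4.0.16 (quasi-likelihood F test, TMM scaling, filterByExpr, 1 coefficient per state, 9 libraries) in R 4.3.3, and p-values were adjusted by Benjamini-Hochberg over 10193 genes. Alternatives used DESeq2 1.42.0, other scalings, filters and thresholds. The tests were run on simulated counts beforehand. RPM used reads on genes. An exact permutation test of 3 against 3 libraries cannot go below p = 0.1, so none is given.

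Named genes were, in each direction, the 15 called genes with the largest fold change whose libraries did not overlap and whose higher state averaged at least 20 RPM, the 10 with the largest difference in RPM, up to 6 called members of each gene list, and all INP temporal and progenitor markers. Of the genes so named, the text prints those with a described role or the largest values. Genes outside this rule (chinmo, Optix, so, eya, dac, Eaat1, nrv2, repo, elav, nSyb, egr, kay, phyl, insb) were chosen after their values were seen. Members and lists were chosen with earlier results of these data known. Lists are described by counts and medians. Of the list entries, 44 had no match in the annotation and were left out, among them Imp, scro, esg, Dl, para and wg. Called genes without a symbol, 7 higher and 2 lower, may belong to such entries, so the counts of a list may lack called members.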

Additional observations from a re-analysis of the deposited data

How the results depend on the processing

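Directions of all named calls held in every alternative run. The number of genes called, 403 (168 higher and 235 lower in Ey+ INPs), depended on the processing. It was 139 (62 and 77) with only the 6 Ey+ and D+ libraries, 131 (65 and 66) when tested against a 1.5-fold change with glmTreat, 222 (100 and 122) at over 50 RPM and 712 (279 and 433) with no fold threshold. DESeq2 called 339 higher and 249 lower, and with a normal prior 316 and 206. With no filter on low counts 183 were higher and 177 lower, and with library size only 122 and 217, where the median of all genes was -0.14 on the log2 scale, against -0.02 with TMM. With 1 library left out, the count ranged from 107 to 657 (70 to 298 higher, 37 to 359 lower), lowest without Ey+ replicate 2 and highest without D+ replicate 1. Leaving out both Ey+ replicate 1 and D+ replicate 2, chosen after seeing the data, gave 231 (132 higher and 99 lower). Same-numbered Ey+ and D+ libraries did not all deviate together (correlations 0.307, 0.0322 and -0.113), so the numbers were not taken as a pairing. With a replicate block, 293 genes were called (128 higher and 165 lower). On the RPM scale, 125 gained and 213 lost genes were nearer Ey+ INPs in the Grh+ state. The causes of these differences were not tested. The comparison of core promoter letters was not run, and promoter sequences were not used here.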
